A study of Mus musculus with 167 samples.

Results

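The regions described here are 987 binding sites of the insulator protein CTCF that were called in both wild-type libraries of cultured mouse pro-B cells and in neither library of cells homozygous for an inversion in the immunoglobulin heavy-chain locus, Igh(890-inv/890-inv). They were selected on that difference: a peak of wild type replicate 1 entered if its midpoint lay over 1 kb and up to 50 kb from an annotated transcription start in the mouse genome build mm9, if at least 1 bp of it was covered by a peak of wild type replicate 2, and if no base of it was covered in either 890-inv library. Of 36687 peaks in the first wild-type library, 26864 lay in that distance range and 25163 of these were shared by both wild-type libraries. The 987 members were 3.92% of the shared peaks (exact 95% binomial interval 3.69 to 4.17%), 21175 shared peaks were found in both 890-inv libraries, and 3001 were found in 1 of the 2. Because the absence of a peak from the 890-inv files chose the members, the counts, widths and positions below describe them and carry no test.

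The study profiled C57BL/6 mouse B-cell precursors with altered Igh alleles or altered expression of the cohesin-release factor Wapl. The CTCF libraries came from pro-B cells expanded in culture for 5 days, 2 libraries of wild-type cells and 2 of Igh(890-inv/890-inv) cells, precipitated with the same rabbit polyclonal antibody. A further 3 readouts played no part in choosing the peaks. The first is V(D)J-Seq of sorted bone marrow pro-B cells, with 3 Igh(+/+) and 3 Igh(890-inv/890-inv) libraries. The second is polyA RNA of sorted immature B cells, with 2 Igh(+/+) and 2 libraries labelled Igh(890-inv/+). The third is polyA RNA of 2 cultures of Wapl(+/+) pro-B cells, expanded for 3 days, against 5 days for the CTCF cultures. The labels do not say whether replicates came from separate animals, so the p-values measure the spread between these libraries, which may be technical.

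CTCF binds a long DNA motif through its zinc fingers and halts the loop-extruding cohesin complex, with an effect that depends on the direction in which the motif points. In the Igh locus, many CTCF sites lie among the V genes, close to the recombination signals of the V genes nearest to the D and J segments and farther from those of the distal V genes. In pro-B cells the locus contracts, so that distal V genes can be brought to the recombination centre at the J segments and joined there by the RAG recombinase.

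The Igh locus held 7 of the members. Their middle 120 bases in mm9 are shown because these are the only members in the locus that carries the inversion. The widest and the narrowest member of the whole set follow for comparison. Each is named by the nearest annotated transcription start and written on the plus strand. Capitals mark a match to the CTCF core CNAGGNGGC, or to its shorter and looser form AGNNGGC, on either strand; a match on the minus strand reads GCCNCCTNG or GCCNNCT.

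Igh, Ighv12-3 (chr12:115617288-115617407): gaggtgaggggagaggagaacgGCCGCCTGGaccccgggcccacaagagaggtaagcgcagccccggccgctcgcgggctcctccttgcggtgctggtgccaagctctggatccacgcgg
Igh, Gm16860 (chr12:115987086-115987205): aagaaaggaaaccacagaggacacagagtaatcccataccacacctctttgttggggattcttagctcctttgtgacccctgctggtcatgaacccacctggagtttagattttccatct
Igh, Gm16717 (chr12:116029249-116029368): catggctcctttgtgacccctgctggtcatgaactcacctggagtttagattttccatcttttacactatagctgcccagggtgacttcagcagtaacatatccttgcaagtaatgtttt
Igh, Ighv1-59 (chr12:116574968-116575087): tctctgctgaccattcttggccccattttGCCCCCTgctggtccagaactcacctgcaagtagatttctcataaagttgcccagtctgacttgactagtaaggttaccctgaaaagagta
Igh, Gm9232 (chr12:116652378-116652497): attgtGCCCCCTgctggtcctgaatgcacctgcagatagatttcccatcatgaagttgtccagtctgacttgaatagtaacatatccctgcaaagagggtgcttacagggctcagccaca
Igh, Ighv1-71 (chr12:116933919-116934038): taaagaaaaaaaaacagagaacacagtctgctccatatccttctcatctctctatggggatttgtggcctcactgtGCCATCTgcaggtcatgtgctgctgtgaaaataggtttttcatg
Igh, Gm16811 (chr12:117076088-117076207): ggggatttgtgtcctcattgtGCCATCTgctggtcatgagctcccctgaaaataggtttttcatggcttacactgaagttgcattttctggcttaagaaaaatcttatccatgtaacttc
Widest, Gm15247 (chrX:166437397-166437516): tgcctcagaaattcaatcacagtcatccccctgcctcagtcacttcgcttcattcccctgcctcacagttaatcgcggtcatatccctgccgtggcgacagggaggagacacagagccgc
Narrowest, Socs1 (chr16:10770781-10770900): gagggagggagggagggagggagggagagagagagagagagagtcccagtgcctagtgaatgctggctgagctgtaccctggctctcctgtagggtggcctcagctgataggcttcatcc

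For the 4 Igh names that are older symbols in the mm9 annotation, RefSeq pairs Gm16860 with Ighv1-22, Gm16717 with Ighv1-26, Gm9232 with Ighv1-62-1 and Gm16811 with Ighv1-75. The whole peak held CNAGGNGGC in 1 of the 7 Igh members, that near Ighv12-3, and AGNNGGC in 5. Several Igh members carried stretches of the same sequence. The peaks near Gm16860 and Gm16717 shared a run of 45 identical bases, those near Ighv1-71 and Gm16811 a run of 26, and those near Ighv1-59 and Gm9232 a run of 16, against a median longest run of 9 over the 21 pairs. Whether the repeated sequence affected where reads could be placed was not tested.

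The members were narrow peaks. Their median width in wild type replicate 1 was 244 bp (quartiles 221 and 272 bp, range 170 to 706 bp), against 374 bp for the peaks found in both 890-inv libraries and 266 bp for those found in 1. At or under 300 bp lay 891 members (90.3%), compared with 15.7% of the peaks found in both. The same sites were also narrow in the second wild-type library, where the peak covering a member had a median width of 261 bp.

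The share of shared wild-type peaks missing from both 890-inv libraries fell steeply with width. It was 40.5% for peaks up to 200 bp (81 of 200), 33.4% from 200 to 225 bp and 19.2% from 225 to 250 bp. It was 5.06% from 275 to 300 bp, 1.18% from 300 to 350 bp and 0.109% from 400 to 500 bp, and 0.211% (6 of 2848) above 500 bp. Peak width is the only graded value in these files, since the score column of every peak list held 0; neither read depth nor enrichment stood beside the calls.

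**Figure D1:**
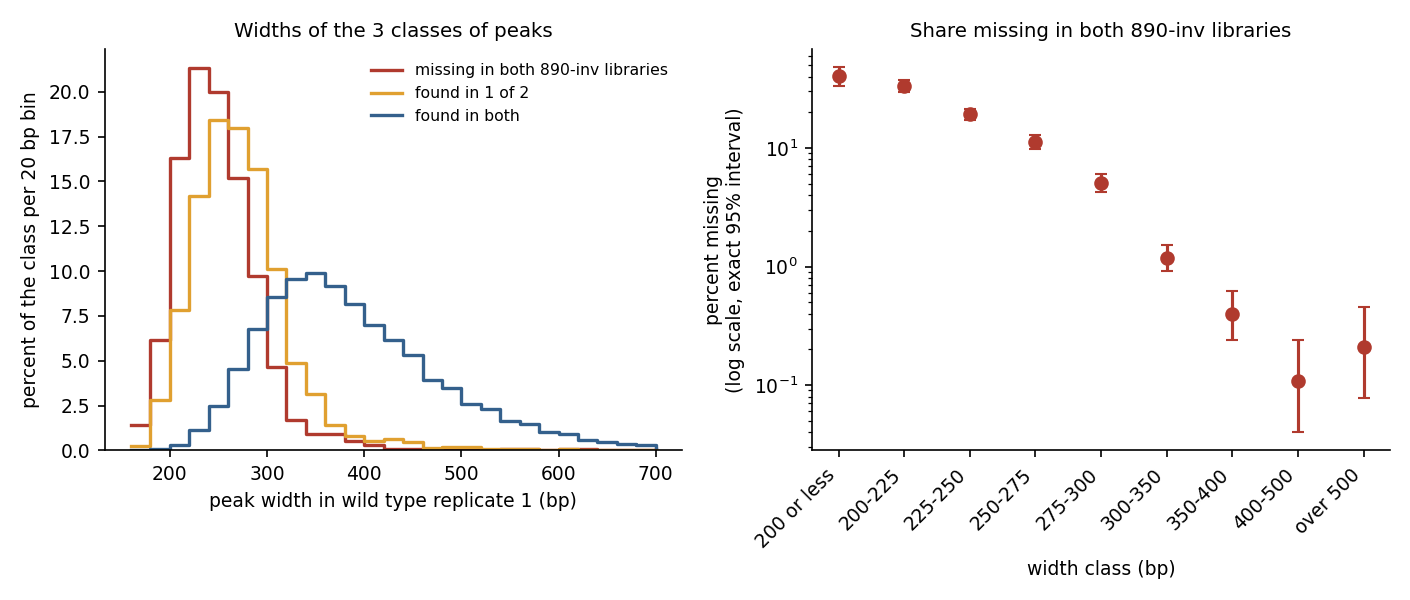
Left, the distribution of peak width in wild type replicate 1 (bp, in bins of 20 bp, as a percent of each class) for shared wild-type peaks missing in both 890-inv libraries, found in 1 of the 2 or found in both. Right, the percent of shared wild-type peaks missing in both 890-inv libraries by width class, on a log axis with exact 95% binomial intervals; the share runs from 40.5% at 200 bp or less to 0.109% at 400 to 500 bp.

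The 4 libraries did not call equal numbers of peaks. Wild type replicates 1 and 2 had 36687 and 36133 peaks with median widths of 349 and 373 bp, and 890-inv replicates 1 and 2 had 34754 and 29352 with median widths of 359 and 327 bp. The mean was 36410 ± 392 (SD, n = 2) in wild type and 32053 ± 3820 (SD, n = 2) in 890-inv, a difference that an exact two-sided permutation test placed at p = 0.3333, the smallest value that 2 against 2 libraries allow. The second 890-inv library stood apart: it alone lacked 3821 of the 25163 shared peaks (15.2%), while the first lacked 1154 (4.59%). Without the second 890-inv library the members would number 1154, and without the first 3821. The part of library quality in the absence of these peaks was not tested.

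Presence patterns over the 4 libraries come from the same calls that chose the members, so they only describe the count of 987. Of wild type replicate 1 peaks in the distance range, 987 were shared with wild type replicate 2 alone, 498 with 890-inv replicate 1 alone and 51 with 890-inv replicate 2 alone, while 1094 were found in no other library. Read the other way, 17 of 21308 peaks in the distance range called in both 890-inv libraries were absent from both wild-type libraries (0.0798%). None of these lay in Igh, where 29 such peaks were examined. The reverse count requires a call in 890-inv replicate 2, the library with the fewest peaks (29352), so it is not like for like with the 987. Starting from the second wild-type library gave 981 members, 978 of which overlapped one of the 987.

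The members were spread over the genome. Those in Igh included, the 987 lay in introns (471), between genes (459), in coding exons (28) and in other exon sequence (29). Coding exons held 2.84% of members and 1.73% of the peaks found in both. The median distance to the nearest start was 11424 bp, against 9660 bp. Of the 987, 840 had no other member within 100 kb, 66 pairs lay closer than that, and 5 groups held 3 each. Among them were groups near Uggt1 and Arid5a on chromosome 1, near Muted and Gm17729 on chromosome 13, near Psmb1, Gm7177 and Prdm9 on chromosome 17, and near Pvrl2, Bcl3 and RP23-191I16.2 on chromosome 7. Psmb1 encodes a proteasome subunit, Prdm9 the histone methyltransferase that places meiotic recombination, and Bcl3 a cofactor of NF-kappa-B.

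For most members no 890-inv peak was called close by. The nearest 890-inv midpoint was a median of 10750 bp away in replicate 1 and 12208 bp in replicate 2. Only 50 members (5.07%) had one within 1 kb in either library.

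The members that were not narrow form a small group. The median width of the peaks found in both libraries was exceeded by 20 members, and 500 bp by 6. The widest lay in an intron on the X chromosome, nearest to the start of Gm15247 (706 bp, and 621 bp in wild type replicate 2). The next were 631 bp near Trim39, which encodes a ubiquitin ligase, and 603 bp near the pseudogene Gm5678. They were followed by 563 bp near Txnrd3, which encodes a thioredoxin reductase, and 545 bp near Fgfr4, a fibroblast growth factor receptor. The sixth was 504 bp in an intron, nearest to the start of Ube2n, a ubiquitin-conjugating enzyme. In wild type replicate 2 the same 5 sites after the first measured 651, 371, 624, 568 and 515 bp, so only the Gm5678 site was under 500 bp there. At the other end, the narrowest members were 170 bp near Socs1, a suppressor of cytokine signalling, 171 bp near the pseudogene Gm12209 and 173 bp near Apod, a lipocalin. In wild type replicate 2 these measured 269, 244 and 245 bp.

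Members close to the lower limit lay 1005.5 bp from the start of Rbak and 1013.5 bp from Xrcc6, and peaks missing in the same way lay just outside it at 982 bp from H2afy2, 989 bp from Dkk3 and 998.5 bp from Grm4. At the upper limit the last members were 49310, 49539 and 49716.5 bp away and the next missing peaks 50044.5, 50114 and 50117 bp. The missing share was 4.59% (226 of 4919) at 1 kb or less and 4.92% (206 of 4190) beyond 50 kb. Within the range it ran from 3.10% at 1 to 2 kb to 4.98% at 40 to 50 kb, and the shared peaks of 250 bp or less made up 7.72% and 9.88% of those classes, respectively.

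By chromosome the missing share ran from 2.98% on chromosome 15 to 5.27% on chromosome 16. Chromosome 12, which carries Igh, had 45 members among 948 shared peaks (4.75%) and ranked sixth of 20 chromosomes with shared peaks. Outside Igh, chromosome 12 had 38 of 905 (4.20%; interval 2.99 to 5.72%), so the chromosome was close to the genome at large.

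Inside Igh, from chr12:114523536-117238672 in mm9, 7 of 43 shared peaks were missing (16.3%; exact 95% interval 6.81 to 30.7%), against 3.90% (980 of 25120) in the rest of the genome. The Igh peaks were also narrower than others, with a median of 284 bp against 356 bp. In width classes the Igh share was 5 of 10 at 250 bp or less beside 25.4% elsewhere, 1 of 18 from 250 to 300 bp beside 7.76%, and 1 of 15 above 300 bp beside 0.511%. With so few peaks the binomial intervals of the 3 Igh classes were wide, at 18.7 to 81.3%, 0.141 to 27.3% and 0.169 to 31.9%, and the classes are given as a description. All of these intervals cover counting error alone.

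A few other stretches of the genome gave shares as high as that of Igh, from fewer peaks. Of 477 windows of the locus length with at least 20 shared peaks, 6 reached the Igh share, Igh included. The windows above Igh held 20 to 29 shared peaks each, against 43 in Igh. The highest had 6 of 29 (20.7%), on chromosome 9, and a chromosome 6 window that held the member near Igkv5-45 had 4 of 20 (20.0%). The median over windows was 3.70%. Only 3 windows had a median width as low as that of Igh. The kappa light-chain locus on chromosome 6, looked at after the Igh value was known, lacked 5 of 30 (16.7%, interval 5.64 to 34.7%), with a median width of 299 bp. It overlaps the chromosome 6 window above, so it is not a further separate case. The T-cell receptor loci Tcra and Tcrd lacked 0 of 18 (upper exact bound 18.5%), and Tcrb 0 of 9.

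**Figure D2:**
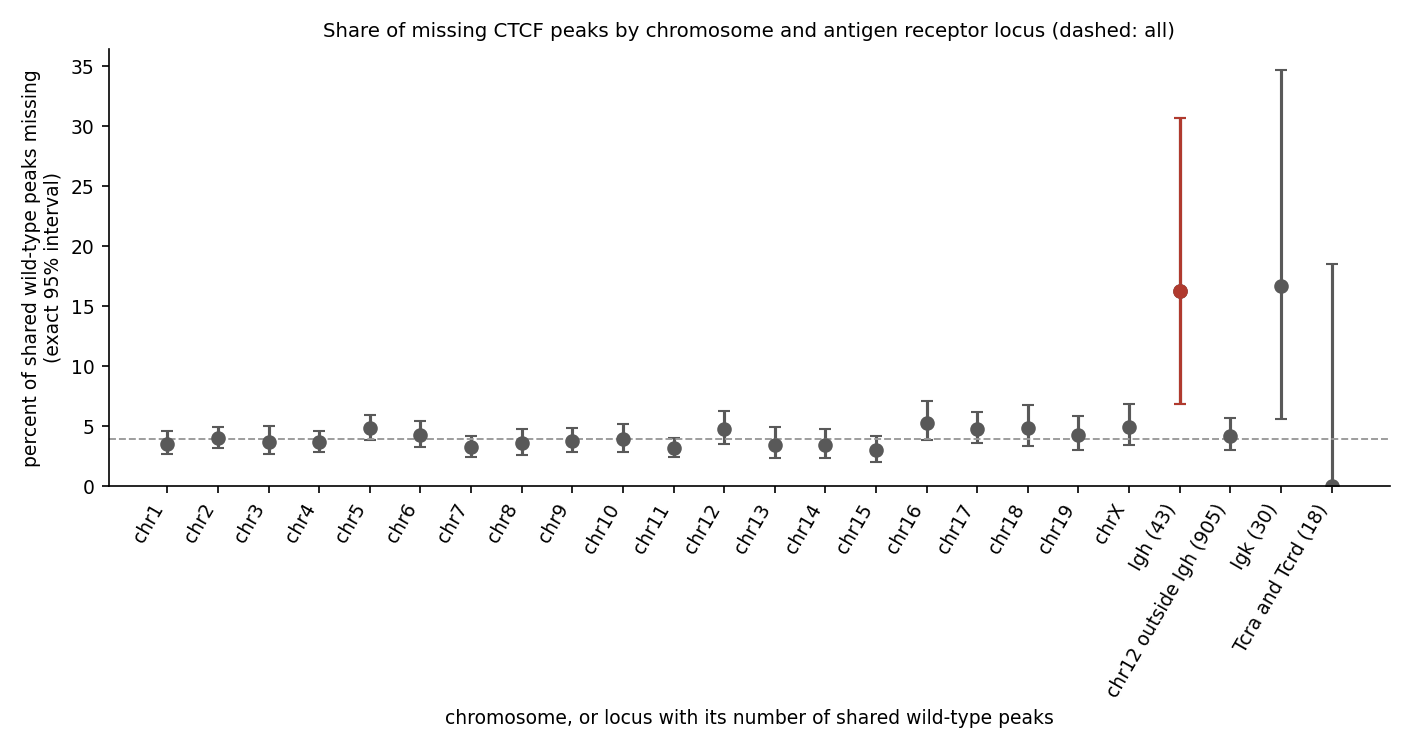
Percent of shared wild-type CTCF peaks missing in both 890-inv libraries, by chromosome and by antigen receptor locus, with exact 95% binomial intervals; the dashed line is the value over all shared peaks, 3.92%. Chromosomes lie between 2.98% and 5.27%, and Igh (red, 16.3% of 43) and Igk (16.7% of 30) lie above them with wide intervals.

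The 1 kb limit leaves out many Igh sites, because 28 of the 71 shared Igh peaks lay within 1 kb of an annotated start, 22 of them at 400 to 700 bp. Among those 28, 1 was missing in both 890-inv libraries (3.57%; interval 0.0904 to 18.3%). At any distance the Igh locus lacked 8 of 71 (11.3%; interval 4.99 to 21.0%). The 7 Igh peaks in the distance range that 890-inv replicate 1 lacked are the 7 members themselves, and replicate 2 lacked these among 15 (34.9% of 43, beside 15.2% of all shared peaks).

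The series' design text names a build modified for the inverted allele for the 890-inv libraries, so the deposited positions were compared with mm9 order. As deposited, 63 of 71 shared wild-type Igh peaks had a midpoint of 890-inv replicate 1 within 200 bp, and 52 had one of replicate 2. When the 890-inv positions were mirrored around every axis in the locus, the best axis matched 8 and 7, and the median axis matched 0. Most shared Igh peaks thus had an 890-inv peak at their mm9 position. The scan counted all 71 peaks together, so it cannot tell how the 7 missing peaks alone would match. Whether those 7 were mirrored was not tested.

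The 7 Igh members lay 1459 kb apart from first to last. The first, at chr12:115617151-115617543, was 393 bp wide and 12182 bp from the start of Ighv12-3. It was the widest of the 7 and the only one over 300 bp, with 345 bp in wild type replicate 2. Its central 200 bases were 69.0% G or C, and CpG dinucleotides occurred at 0.772 of the number that its base composition gives. Such a CpG-rich centre was rare: 33 members (3.34%) and 5.70% of the peaks found in both reached 0.6. A second missing peak stood beside it at chr12:115629802-115630001, 478.5 bp from the start of Gm16930 and thus under the distance limit. The nearest 890-inv peaks to the first were 12667 and 12701 bp away.

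The next were a pair of peaks at chr12:115987004-115987287 (284 bp) and chr12:116029204-116029413 (210 bp), 2228.5 and 2292.5 bp from the starts of Gm16860 and Gm16717. The remaining 4 lay farther from the D and J segments. They were at chr12:116574911-116575144 (234 bp, 1302.5 bp from Ighv1-59), chr12:116652318-116652557 (240 bp, 27238.5 bp from Gm9232), chr12:116933880-116934077 (198 bp, 46738.5 bp from Ighv1-71) and chr12:117076047-117076247 (201 bp, 3540 bp from Gm16811). All 7 were intergenic. Of these 7, 5 were between 198 and 240 bp wide, in the width class of which 25.4% was missing elsewhere.

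V(D)J joins gave a readout at the same places that was independent of the peak calls. Shares below are each V gene's percent of the total over listed V genes in a library. Of 118 V genes tested with limma on log2(share + 0.02), 37 were higher and 52 lower in 890-inv at an adjusted p under 0.05, which is 75.4% called, so a call near a peak is not particular to it. With 76 lower and 7 higher of 103, the split was different on the deposited percent scale, where the listed V genes summed to 45.9 ± 3.71% in control and 27.8 ± 2.73% in 890-inv libraries (SD, n = 3 each).

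Of the 118 tested V genes, 99 could be placed in mm9. Before the first Igh member, nearest to the D and J segments, 20 of 38 rose and 2 fell as shares, with a median log2 fold change of 0.30, while on the deposited percent scale 1 rose and 23 fell, with a median of -0.40. The direction there thus depends on the scale. Among the distal V genes it did not: between members 3 and 4, counted from the D and J side, 17 of 18 fell and none rose as shares (median -3.31), and 15 of 15 fell as deposited (median -3.26). Between members 5 and 6 all 10 fell as shares (median -4.33) and all 9 tested fell as deposited (median -3.77). After the last member the fall was smaller and not uniform. There 7 of 9 fell and 1, Ighv1-85, rose as shares (median -1.82). As deposited, 7 of 8 fell and 1 rose (median -2.35). In all, 26 placed V genes were under 10% of their control share, and they lay from Ighv1-49 to Ighv1-78 over 814 kb. All 30 tested V genes in that stretch fell, but the 26 set its ends, so this count is a description. In that stretch 4 of the 20 shared peaks were members, and outside it 3 of the 23 shared Igh peaks. Many of the distal V genes counted above had a mean share under 0.05 in the libraries with the inversion. Ighv1-49, for example, had 0.0024% there against 1.13% in control. Such genes passed the filter on low shares through the control libraries alone, so their calls add nothing to the fall in share.

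**Figure D3:**
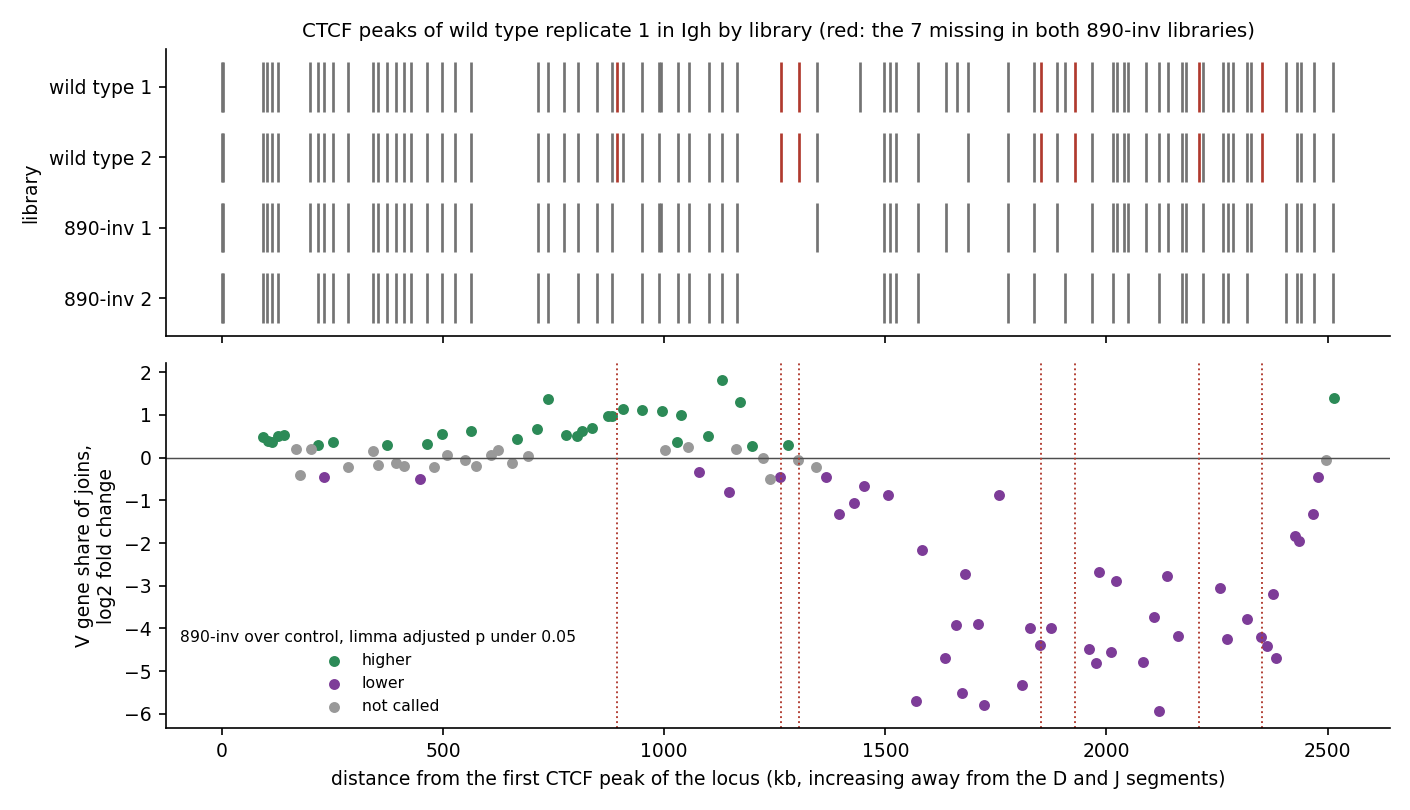
Top, CTCF peaks of wild type replicate 1 in Igh and whether each was called in the other 3 libraries, against distance from the first peak of the locus (kb); the 7 members are red and are absent in both 890-inv rows. Bottom, log2 fold change of each placed V gene's share of V(D)J joins, 890-inv over control (limma, n = 3 each), with dotted lines at the 7 members; 3 members stand before the run of strongly lower V genes and 4 within it.

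Both V genes next to the CpG-rich 393 bp peak had larger shares in 890-inv cells, but the rise was not particular to them. Between members 1 and 2, 9 of 17 tested V genes rose and 3 fell as shares. Among those that rose, Ighv6-6 and Ighv10-1, farther from the peak, had log2 fold changes of 1.12 and 1.09. Ighv12-3, 12.4 kb away, had shares of 2.49, 2.08 and 2.06% in control and 4.21, 4.38 and 4.47% in 890-inv libraries. The log2 fold change was 0.98 ± 0.08 (SE, limma adjusted p = 3.88e-10). On the deposited percent scale it was 0.26 with an adjusted p of 0.0553, so the call was not kept there. Ighv6-3, 12.8 kb away on the far side, had shares of 0.899, 0.825 and 0.848% in control and 2.11, 2.08 and 1.62% in 890-inv libraries. Its log2 fold change was 1.15 ± 0.11 (SE, limma adjusted p = 2.28e-09), or 0.43 on the deposited percent scale (adjusted p = 0.00331).

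Around the pair of members near Gm16860 and Gm16717 the values depended on the scale. Ighv1-22, 2.44 kb from the first of the pair, averaged 0.767 ± 0.0232% in control and 0.557 ± 0.0812% in 890-inv libraries (SD, n = 3 each), a log2 fold change of -0.46 with a limma adjusted p of 0.00323, or -1.10 on the deposited percent scale (adjusted p = 1.06e-10). Ighv1-26, 2.51 kb from the second, averaged 2.49 ± 0.0646% and 2.39 ± 0.236%, and its groups overlapped as shares (limma adjusted p = 0.486). On the deposited percent scale it fell, with a log2 fold change of -0.77 (limma adjusted p = 1.50e-08). Ighv1-23 lay between them with 0.601 ± 0.0238% and 0.747 ± 0.0203%. Its log2 fold change was 0.30 on shares (limma adjusted p = 0.0231) and -0.38 on the deposited percent scale (adjusted p = 0.0244), so its direction depends on the scale. Ighv1-31, 38.3 kb beyond the pair, averaged 0.163 ± 0.0247% and 0.139 ± 0.0249%, with overlapping groups (limma adjusted p = 0.330), and it too fell on the deposited percent scale, with a log2 fold change of -0.70 (limma adjusted p = 6.49e-07).

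Beside the 4 distal members the joins were nearly lost. Ighv1-59, 1.52 kb from its peak, had shares of 0.365, 0.426 and 0.403% in control and was listed at 0 in all 3 890-inv libraries. Ighv1-61, 22.5 kb from the same peak, fell from 0.367 ± 0.0475% to 0.00427 ± 0.00169%. Ighv1-62-2, 32.3 kb from the peak near Gm9232, fell from 0.591 ± 0.0418% to 0.00728 ± 0.00261%. Ighv8-12 and Ighv1-71, on the 2 sides of the 198 bp peak, fell from 1.04 ± 0.0789% to 0.0413 ± 0.0210% and from 0.159 ± 0.0213% to 0.00143 ± 0.00248%. Ighv1-75 and Ighv1-76, on the 2 sides of the last peak, fell from 0.884 ± 0.0479% to 0.0301 ± 0.0120% and from 0.803 ± 0.0511% to 0.0195 ± 0.0103% (all SD, n = 3 each). In each of these 7 genes the mean share in 890-inv libraries was under 0.05. They thus passed the filter on low shares through the control libraries alone, so their calls add nothing to these values. V genes of this family are near copies of each other, so reads could be assigned to a relative.

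**Figure D4:**
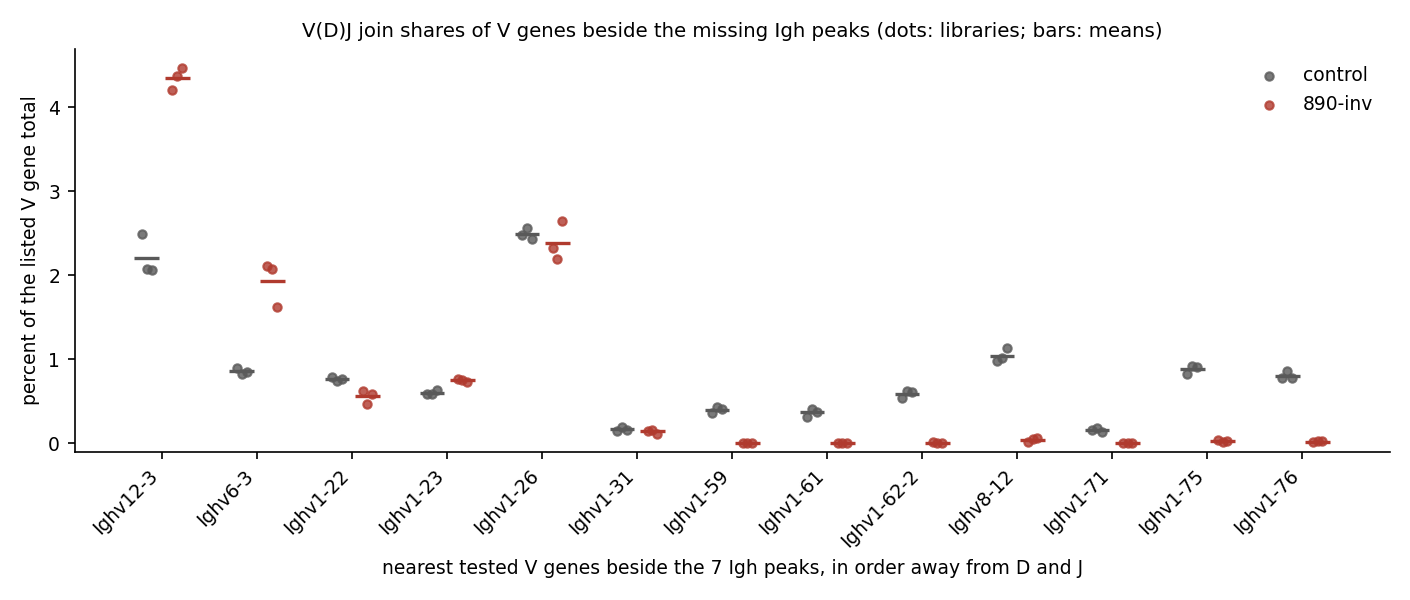
Percent of the listed V gene total for the nearest tested V genes beside the 7 Igh members, in order away from the D and J segments; dots are libraries (3 control, 3 890-inv) and bars are means. Ighv12-3 and Ighv6-3 are higher in 890-inv, and the 7 genes from Ighv1-59 onward are at or near 0.

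RNA at the genes nearest to the members was measured in immature B cells, a later stage than the cells of the CTCF libraries and with the inversion labelled as heterozygous. The 987 members had 926 distinct nearest genes, of which 740 matched a row of the RNA tables and 448 were tested. None rose and 2 fell in the 890-inv/+ libraries with limma at an adjusted p under 0.05, which is 0.446%, beside 0.544% of all 11405 genes tested; at an unadjusted p under 0.05 there were 10 (2.23%), beside 5.41%. The median log2 fold change of the 448 was -0.041, beside -0.035 over all genes. Fewer cells of a type and less RNA per cell cannot be told apart in these bulk libraries.

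Both genes that fell lay in Igh. Ighv1-59 had 48.5 and 38.8 TPM in control libraries and was listed at 0 in both 890-inv/+ libraries. It passed the filter on low values through the control libraries alone, so its call adds nothing to these values. Gm16811, which RefSeq pairs with Ighv1-75, had 107 and 110.4 TPM in control and 3.03 and 2.20 TPM in 890-inv/+ libraries, a log2 fold change of -4.93 ± 0.13 (SE; limma adjusted p = 2.74e-05) on the log2(TPM + 1) scale. The label gives the 890-inv/+ cells an unmodified second allele beside the inverted one. Whether values at or near 0 go with such a genotype was not tested, and the group is called here by its label. The joins of both genes had fallen in 890-inv pro-B cells. The nearest genes of the 3 Igh members closer to the D and J segments did not pass the test: Ighv12-3 had 167 and 97.1 TPM in control and 116 and 210.0 TPM in 890-inv/+ libraries, and the groups overlapped. Gm16860 had 117 and 138 TPM in control and 136 and 155 TPM in 890-inv/+ libraries, and Gm16717 had 186 and 236 TPM against 223 and 196 TPM. Neither Gm9232 nor Ighv1-71 had a value above 0 in these 4 libraries.

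Both groups held B-lineage RNA: all 6 markers of the lineage were at 1 TPM or more in each and summed to between 23030 and 24407 TPM. Immature B-cell markers summed to between 3732 and 4212 TPM, and the 5 myeloid markers to 398 and 611 TPM in control and 767 and 577 TPM in 890-inv/+ libraries, with no marker of any list called. Their part in the results was not tested.

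The nearest genes had levels in pro-B cells like those of other genes near CTCF peaks. In 2 cultures of Wapl(+/+) pro-B cells, 66.3% of the 739 matched genes nearest to members had a mean of 1 TPM or more, beside 63.8% of those nearest to peaks found in both 890-inv libraries. The median was 8.78 TPM against 8.15 TPM, and the 2 cultures gave 66.8 and 66.0% for the members. The cultures held all 5 pro-B markers at 1 TPM or more, among them the surrogate light-chain genes and the terminal transferase gene.

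Of the members, 4 had a gene of the fixed lists as their nearest gene. The lists cover loop extrusion, B-lineage factors, pre-B-cell receptor signalling and recombination. The counts below stand beside the 3.92% missing over all shared peaks. Each list held few shared peaks and was chosen with earlier results of these data known, so the shares are a description. None of the 12 shared peaks nearest to a loop-extrusion gene, such as those of cohesin and its regulators, was a member. Of 34 peaks nearest to B-lineage factor genes 1 was a member (2.94%), 13263.5 bp from Bcl6, the repressor of the germinal-centre programme. Of 7 nearest to genes of pre-B-cell receptor signalling 1 was a member (14.3%), 14626.5 bp from Blnk, which encodes the adaptor that links the receptor to its kinases. Of 11 nearest to recombination genes 2 were members (18.2%): 1690 bp from Dclre1c, which encodes the nuclease Artemis that opens the coding-end hairpins, and 1013.5 bp from Xrcc6, which encodes the Ku70 subunit of the end-joining machinery. These 4 peaks were 182 to 242 bp wide. The RNA of the 4 genes did not pass the test: Bcl6 had 45.5 and 40.7 TPM in control and 45.4 and 48.7 TPM in 890-inv/+ immature B cells, Blnk 375 and 365 against 373 and 378, Dclre1c 6.43 and 6.61 against 6.36 and 7.29, and Xrcc6 74.0 and 65.3 against 79.3 and 72.3.

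The strict CTCF core was present in a smaller share of the members than of the peaks found in both 890-inv libraries. CNAGGNGGC, searched on both strands of the central 200 bases in mm9, was present in 93 of the 987 members (9.42%; interval 7.67 to 11.4%), in 9.56% of the 3001 peaks found in 1 library and in 17.6% of those found in both; over all 25163 shared peaks it was 16.3%. The same window 2 kb away held it in 2.23% of members and 2.32% of all shared peaks. Among peaks of 250 to 300 bp, members had it in 9.97% and peaks found in both in 10.5%. From 225 to 250 bp the shares were 6.77% (interval 3.99 to 10.6%) and 10.8% (8.05 to 14.1%), and up to 225 bp they were 10.4% and 13.5%. Above 300 bp the values were 11.5% (interval 5.86 to 19.6%) and 18.9% (18.3 to 19.5%). The loose form AGNNGGC, of which the strict core is a special case, was present in 74.8% of members and 77.9% of the peaks found in both, with 32.3 and 35.5% in the windows 2 kb away. Base composition was similar, with a median of 45.5% G or C in members and 47.0% in the peaks found in both.

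**Figure D5:**
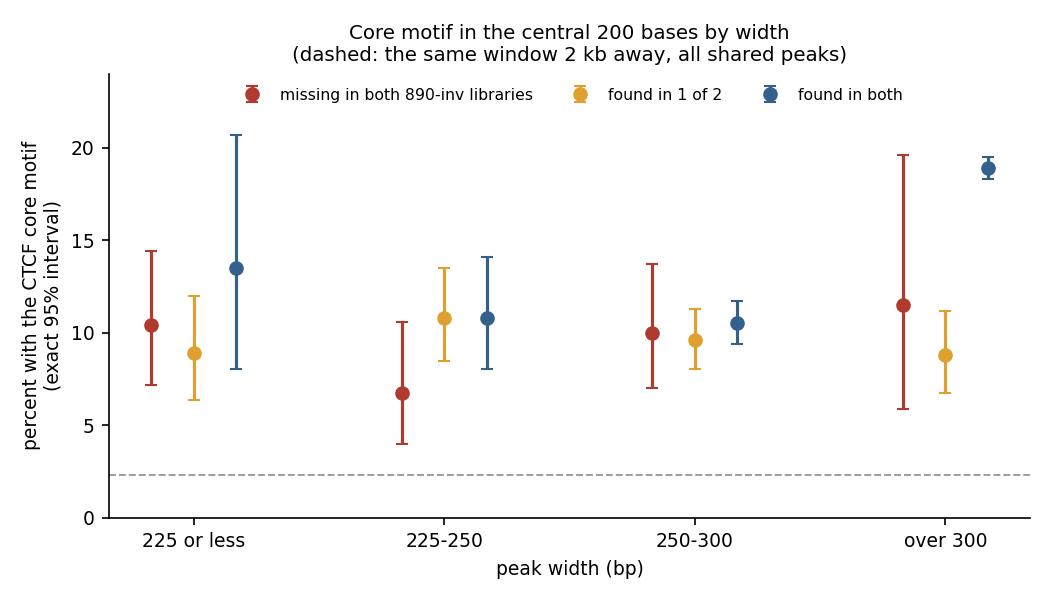
Percent of peaks with CNAGGNGGC on either strand of their central 200 bases, by width of the peak in wild type replicate 1 (bp), for members, peaks found in 1 890-inv library and peaks found in both, with exact 95% binomial intervals; the dashed line is the same window 2 kb away over all shared peaks, 2.32%. Up to 300 bp the 3 classes lie between 6.77% and 13.5%, and above 300 bp the peaks found in both stand at 18.9%.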

How the data were processed

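CTCF peaks were taken as deposited, 1 list per library, with positions of peak starts and ends (other) and a score that was 0 in every row of the deposited files. Per the submitters' processing notes the tools include Bowtie 1.0 and MACS2 2.0, given without roles; no source used here gives the calling thresholds. Per the labels' design text, wild-type libraries used mm9 and 890-inv libraries a modified mm9. V(D)J values are the percent per V gene that the authors deposited, whose total is not stated; they were rescaled to shares of the listed V genes in each library. RNA values are TPM as deposited by the authors, and no read depth is known for any of these files.

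Distances used transcript starts of GENCODE for mm9, and older V gene symbols were paired with RefSeq names. The members and gene lists were chosen with earlier results of these data known. V(D)J shares and log2(TPM + 1) values were fitted with limma 3.58.1 in R 4.3.3 (trended, Benjamini-Hochberg over all features tested), for V genes with a mean share of at least 0.05 and genes that reached 1 TPM in 2 or more libraries. The fits were tested on simulated data. Intervals are exact Clopper-Pearson at 95% and cover counting error only. Named peaks were fixed by rule: all in Igh, the 3 widest and 3 narrowest, those nearest each distance limit, groups of 3 or more within 100 kb, nearest genes called or in the fixed lists, and the V genes beside each Igh peak; wider members beyond the third were added after their values were seen, as were all 7 Igh sequences. Alternatives changed the overlap rule, distance limits, width, libraries, motif, pseudocounts, filters and scale. Some peaks that the rule names are not reported here. The other libraries of the series were not used here.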

Additional observations from a re-analysis of the deposited data

How the results depend on the processing

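The count of 987 members stayed between 779 and 1193 under another overlap rule, other distance limits or the second wild-type library first, and the number in Igh between 5 and 7. Kept to wild-type peaks at or above the median width of 349 bp, 32 members were left, 0.240% of such shared peaks, 1 of them in Igh; the narrower peaks are removed by construction. Leaving out 1 library at a time gave 1154 to 3821 members, 4.59 to 15.2% of the shared peaks, and 7 to 15 in Igh. The higher values came without 890-inv replicate 1, and without wild type replicate 1 or 2 there were 1817 or 2081 members (6.87 and 7.75%). The share of members with the motif was 28.1% for AGGNGGC and 74.8% for AGNNGGC, which are shorter. With a tolerance of 500 bp the best mirror axis matched 11 and 9 Igh peaks.

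Without 1 RNA library at a time, the nearest genes called lower numbered 1 to 2 and those called higher 0 to 1. Ighv1-59, at 1 TPM or more only in the 2 control libraries, was not tested without either of them. For V(D)J joins, leaving out a library gave 34 to 37 genes higher and 45 to 53 lower. The deposited percent scale gave 7 higher and 76 lower. There 103 genes passed in place of 118, under the same filter and pseudocount. On that scale the listed V genes summed to means of 45.9% in control and 27.8% in 890-inv libraries. Why these sums differ was not tested. On that scale the change of Ighv1-23 turned to -0.38, and without 3 of the 6 libraries in turn its call was lost (adjusted p up to 0.0556). Ighv1-26 (-0.77, adjusted p = 1.50e-08) and Ighv1-31 (-0.70, adjusted p = 6.49e-07) were called lower on that scale and not as shares. No paired analysis was possible because the replicate numbers follow accession order and mark no shared animal, culture or day.

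With 2 libraries per CTCF group and no read counts beside the peaks, weak binding cannot be told apart from absent binding.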
